A study of Mus musculus with 12 samples.

Results

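The platelet-derived growth factor (PDGF) genes described here were the ligand genes Pdgfa, Pdgfb and Pdgfc and the receptor genes Pdgfra and Pdgfrb, 5 of the 19057 genes with a probe of their own. They were chosen by name and not by any measured value, but earlier results of these data were known when the choice was made. Their symbols matched 9 probes, and each gene was read from its probe with the highest mean over all arrays. RNA of mouse embryos was hybridised to 12 Illumina bead arrays, and the sources used here name no strain, sex or genotype. The groups were the atrioventricular canal (AVC, the segment in which the endocardial cushions, the precursors of the valves, form) at embryonic day 10 (AVC E10) and embryonic day 9 (AVC E9), and the primary ventricle at the same ages (LV E10 and LV E9), with 3 arrays in each. No treatment or mutation is named for any group, and both tissues were whole dissected segments with all their cell types. How embryos were divided among the 3 replicates of a group is not stated, so the p-values speak only to the spread among these arrays, which could be technical.

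PDGF ligands are secreted as dimers that bind receptor tyrosine kinases at the cell surface. Ligand dimers of the A and C chains act mainly through the alpha receptor, and the B chain binds both receptors. Signalling through the alpha receptor is known for its part in mesenchymal cells, including those of the cardiac cushions, neural crest and epicardium, and signalling of the B chain through the beta receptor for the recruitment of pericytes and vascular smooth muscle, the mural cells of vessels.

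Pdgfra was the member that separated the tissues at both ages. Its intensity was 5.09-fold higher in AVC E10 than in LV E10 and 2.97-fold higher in AVC E9 than in LV E9. Pdgfrb, Pdgfb and Pdgfc were each higher on all AVC E10 arrays than on any LV E10 array, as were 13.1% of all genes. None of these differences passed the test over all genes. Pdgfa was above background on all arrays and showed no difference that passed the test in any comparison. Because the tissues were dissected whole, fewer cells of a type and less RNA per cell cannot be told apart in any of these values.

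For 3 members the start region was read from RefSeq sequences of build GRCm38.p6, taken as the 250 bases before a start. The region of Pdgfra is shown because this gene carried the tissue difference, and that of Pdgfa as the ligand that was above background on all arrays. Capitals mark the E-box (CANNTG, the sequence read by basic helix-loop-helix factors) in Pdgfra and the GC boxes (GGGCGG on either strand, read by Sp factors) in Pdgfa. The Pdgfra region lies at chr5:75152001-75152250 on the plus strand and the upstream of 2 listed Pdgfa starts at chr5:138994945-138995194 on the minus strand.
Pdgfra: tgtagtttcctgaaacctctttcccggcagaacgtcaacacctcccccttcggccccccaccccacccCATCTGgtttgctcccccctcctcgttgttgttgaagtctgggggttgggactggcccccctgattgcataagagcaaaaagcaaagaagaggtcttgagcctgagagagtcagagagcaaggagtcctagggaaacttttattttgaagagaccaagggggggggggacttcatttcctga
Pdgfa: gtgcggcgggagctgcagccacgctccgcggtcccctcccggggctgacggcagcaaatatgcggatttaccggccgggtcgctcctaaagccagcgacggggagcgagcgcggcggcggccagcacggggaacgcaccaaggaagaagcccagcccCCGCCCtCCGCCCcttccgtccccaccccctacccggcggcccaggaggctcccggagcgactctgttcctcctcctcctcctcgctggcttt

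The Pdgfra region held a single E-box, CATCTG, whose first base lay 182 bases before the start, and no GC box. The Pdgfa region held 2 GC boxes, 93 and 86 bases before the start, and no E-box. The other Pdgfa start, with its region at chr5:138994282-138994531, had 1 GC box at 60 bases. The GC content was 54.4% for Pdgfra and 72.4% and 66.4% for the Pdgfa starts, beside a median of 52.4% over the 32851 mouse start regions of this length. An E-box occurred in 66.2% and a GC box in 32.7% of those regions. Of 8 motifs searched on both strands, no other was found in the regions of Pdgfra and Pdgfa, and none in that of Pdgfc. The other 6 were GATAA (in 22.6% of all regions), TATAA (22.8%), CCAAT (33.8%), GTGTGA (12.3%), CTTTGA (13.8%) and CACCTG (17.2%), the last being a form of the E-box. These matches describe letters and not bound sites. No start region was read for Pdgfb and Pdgfrb.

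The deposited values were background-subtracted intensities in arbitrary units. How far an array's values reached below 0 served as its background limit (22.4 to 29.6), and a value beyond that was called above background. For 3 arrays, replicate 1 of AVC E10, replicate 2 of AVC E9 and replicate 1 of LV E10, the most similar array belonged to another group, so results are also given without them. Over the 8340 genes that every array measured above background, the median log2 difference was 0.16 for AVC against LV at E10 and 0.06 at E9, and scaling the arrays to one 75th percentile moved these by -0.26 and -0.15. That scaling also moved the split of all genes called at E10, which was 392 higher and 46 lower in the AVC, to 148 higher and 135 lower. At E9 the split of 163 and 32 moved to 96 and 107. Quantile normalization gave 189 and 84 at E10 and 99 and 52 at E9. Pdgfra stayed called at both ages under both scalings, with log2 differences of 2.09 and 2.21 at E10 and 1.42 and 1.46 at E9. The comparisons of tissue and of age share arrays, so they are not independent of each other. Myocardial markers were bright in all groups, with 7 of 7 measured genes above background on every array, and the cushion markers Twist1 and Sox9 were above background on every array.

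**Figure D1:**
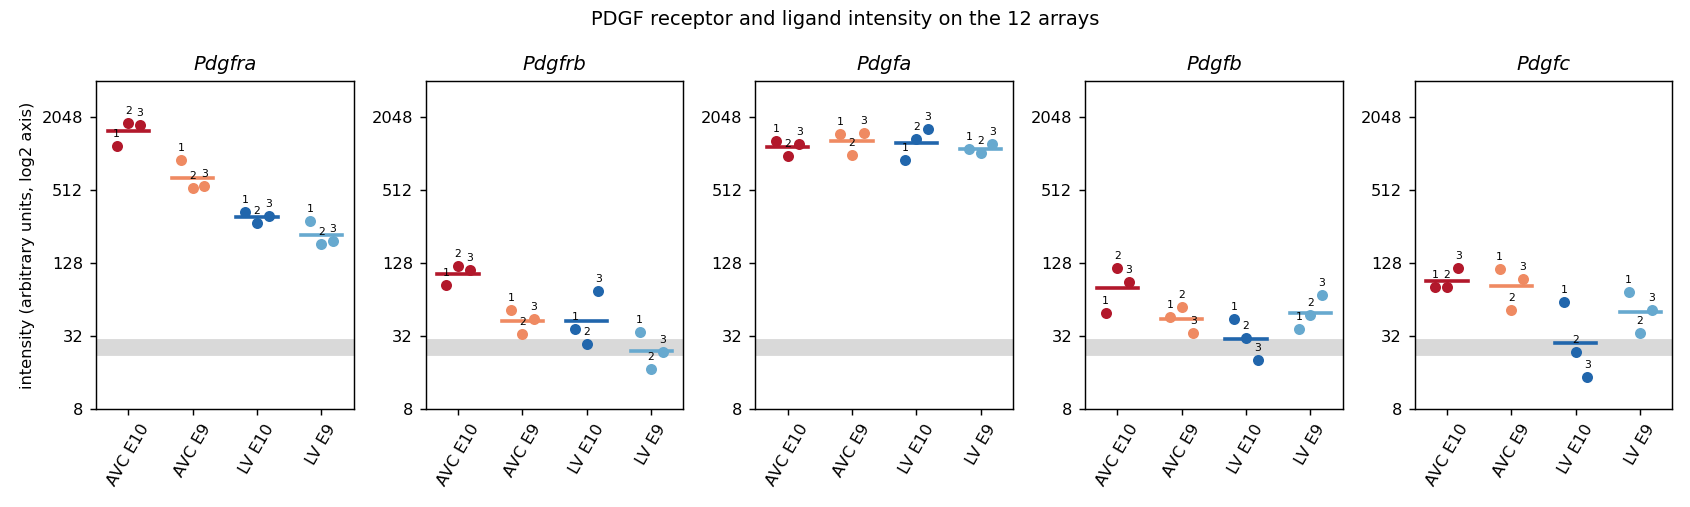
Intensity of the 5 PDGF genes on each array (arbitrary units, log2 axis) in AVC E10, AVC E9, LV E10 and LV E9. Points are arrays numbered by replicate, bars are geometric means of 3 arrays, and the grey band spans the background limits of 22.4 to 29.6. Pdgfra steps down over the 4 groups, the 4 groups of Pdgfa overlap, and the LV values of Pdgfrb, Pdgfb and Pdgfc reach into the band.

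Pdgfra encodes the alpha receptor, which binds the A, B and C chains. Its intensity was 1191, 1833 and 1772 on the AVC E10 arrays, against 339.6, 274 and 315 on the LV E10 arrays. All AVC E10 values lay far above all LV E10 values, and replicate 1 was the lowest of AVC E10. The log2 difference was 2.35 ± 0.27 (SE), with an adjusted p of 0.00683 by limma with Benjamini-Hochberg adjustment over all genes, and Pdgfra ranked 44 by p among the 19057 genes. It was the only member called higher in the AVC at E10, 1 of 5, where 2.06% of all genes were. The difference passed the test with each of the 12 arrays left out in turn, with an adjusted p of at most 0.0353 and log2 differences of 2.24 to 2.55. Without the 3 arrays named above it was 2.62, with an adjusted p of 0.0140. Fitted on the AVC E10 and LV E10 arrays alone, it had an adjusted p of 0.0526.

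The tissues also differed at E9. Pdgfra intensity was 914, 535 and 554 in AVC E9, against 288, 185 and 194 in LV E9. The groups did not overlap, as was so in this direction for 11.8% of genes, and replicate 1 was the highest array in both. The log2 difference was 1.57 ± 0.27 (SE), with an adjusted p of 0.0369 by limma, and Pdgfra was again the only member called, where 0.855% of all genes were called higher. This call was kept without replicate 1 of AVC E10, of LV E10 or of LV E9, and ended without any of the other 9 arrays, with adjusted p between 0.0608 and 0.134. The log2 difference stayed between 1.32 and 1.77 in all 12 cases. Without the 3 arrays it was 1.71, with an adjusted p of 0.0562. Fitted on the AVC E9 and LV E9 arrays alone, it had an adjusted p of 0.159, and with the replicate number as a block in the fit 0.0733. Averaged over both ages the tissue difference of Pdgfra was 1.96 ± 0.19 (SE, adjusted p = 0.00165 by limma), where 4.79% of all genes were called higher, and its 6 AVC values all lay above its 6 LV values, as was so for 2.36% of genes. That call was kept with each array left out, with an adjusted p of at most 0.00724.

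Pdgfra was also higher at E10 than at E9. Within the AVC the 3 values at E10 lay above the 3 at E9, with a log2 difference of 1.28 ± 0.27 (SE). Its adjusted p was 0.0827 by limma, so it did not pass, although it passed without replicate 1 of AVC E10 (log2 difference 1.48, adjusted p = 0.0402). Within the LV the difference was 0.50 with an adjusted p of 0.363, and the values overlapped. Averaged over both tissues the age difference was 0.89 ± 0.19 (SE, adjusted p = 0.0279 by limma), and Pdgfra was the only member called, where 4.62% of all genes were called higher at E10. This call ended without replicates 2 or 3 of AVC E10, replicate 3 of AVC E9, replicates 2 or 3 of LV E10, or replicates 2 or 3 of LV E9, with adjusted p between 0.0584 and 0.0753. Without the 3 arrays it was kept (0.89, adjusted p = 0.0324). The interaction, which tests whether the tissue difference was larger at E10 than at E9, was 0.78 with a 95% interval of -0.09 to 1.64 and an adjusted p of 0.937. A different tissue difference at the 2 ages was therefore not shown. The order of mean intensity was AVC E10 (1599 ± 355), AVC E9 (668 ± 214), LV E10 (309.5 ± 33.3) and LV E9 (222 ± 56.8, SD, n = 3 each). Only LV E10 and LV E9, neighbours in that order, overlapped.

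Pdgfrb encodes the beta receptor, known for its part in mural cells. Its intensity was 85.0, 122 and 112 in AVC E10, against 36.6, 27.3 and 76.0 in LV E10. The groups did not overlap, but replicate 3 of LV E10 came close to the lowest AVC E10 array. Of the 5 members 4, Pdgfrb, Pdgfra, Pdgfb and Pdgfc, were higher on every AVC E10 array than on any LV E10 array, a pattern that 13.1% of all genes showed. The log2 difference of Pdgfrb was 1.31 ± 0.40 (SE), with an unadjusted p of 0.0107 and an adjusted p of 0.162 by limma. In AVC E9 Pdgfrb was at 52.1, 33.2 and 44.2, against 34.5, 16.9 and 23.6 in LV E9. These ranges overlapped, replicates 2 and 3 of LV E9 were not above background, and the log2 difference of 0.82 had an adjusted p of 0.516.

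Averaged over both ages the tissue difference of Pdgfrb was 1.07 ± 0.28 (SE, adjusted p = 0.0729 by limma). It passed without replicate 3 of LV E10 alone (1.28, adjusted p = 0.0234) and not without the 3 arrays together (1.18, adjusted p = 0.119). With age, all AVC E10 values of Pdgfrb lay above all AVC E9 values, as did those of Pdgfra, a pattern shown by 10.2% of genes. The log2 difference of Pdgfrb was 1.31 in the AVC (adjusted p = 0.212 by limma) and 0.82 in the LV (adjusted p = 0.318). The age difference averaged over both tissues was 1.06 ± 0.28 (SE, adjusted p = 0.0573 by limma), and it passed without replicate 1 of LV E10 (1.12, adjusted p = 0.0491). The mean intensity was 106 ± 19.2 in AVC E10, 43.2 ± 9.51 in AVC E9, 46.6 ± 25.8 in LV E10 and 25.0 ± 8.89 in LV E9 (SD, n = 3 each), and AVC E9, LV E10 and LV E9 overlapped each other.

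**Figure D2:**
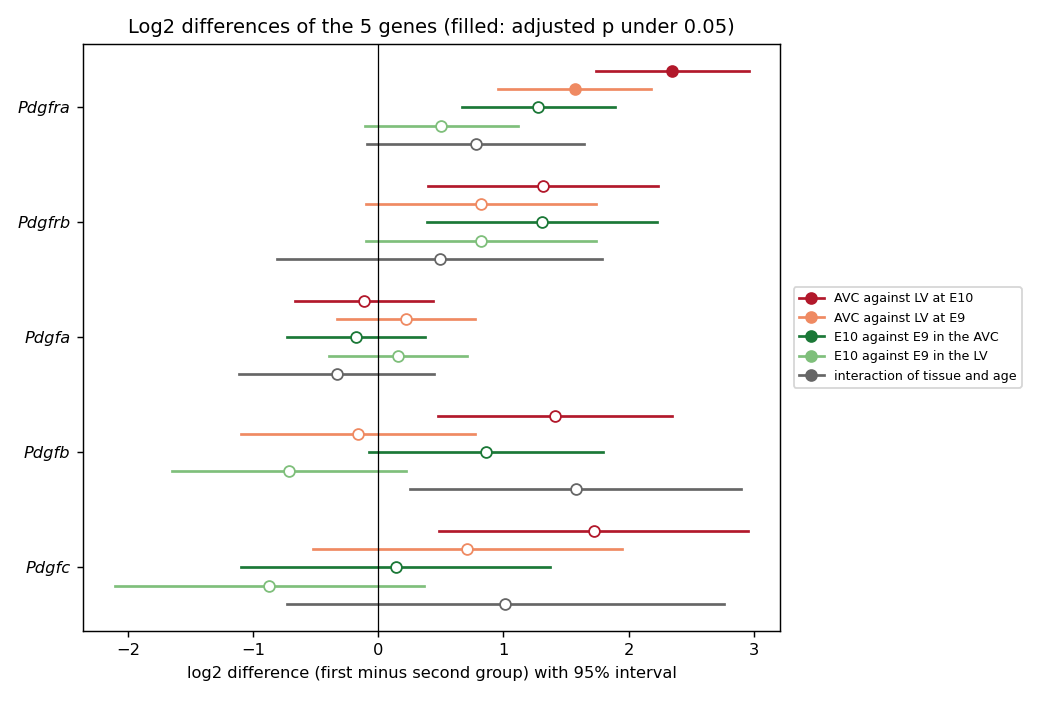
Log2 differences of the 5 PDGF genes for AVC minus LV at E10 and at E9, E10 minus E9 in the AVC and in the LV, and the interaction, with 95% intervals from limma; filled points have an adjusted p under 0.05. Only Pdgfra has filled points, at 2.35 and 1.57 for AVC minus LV.

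Among the ligands, Pdgfa, the A chain, was a steady signal in both tissues. Its intensity was 1315, 982 and 1232 in AVC E10, 1485, 1007 and 1535 in AVC E9, 905, 1350.4 and 1646 in LV E10, and 1127, 1049 and 1230 in LV E9. The 4 groups overlapped, and the highest and the lowest array were both of LV E10. The log2 difference of AVC against LV was -0.11 at E10 (95% interval -0.66 to 0.44, adjusted p = 0.989 by limma) and 0.22 at E9 (-0.33 to 0.77, adjusted p = 0.872). The age difference averaged over both tissues was -0.01 (-0.40 to 0.38, adjusted p = 1). The intervals reach 0.77 in size, and the sign of several Pdgfa differences turned with the scaling or with single arrays left out.

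Pdgfb, the B chain, is known as a product of endothelium and platelets. Its intensity was 49.7, 117 and 89.4 in AVC E10, against 44.4, 30.9 and 20.1 in LV E10. The ranges were apart, but the lowest AVC E10 array and the highest LV E10 array, both replicate 1, nearly met, and replicate 3 of LV E10 was not above background. The log2 difference was 1.41 ± 0.41 (SE), with an adjusted p of 0.142 by limma. At E9 Pdgfb was at 46.0, 55.2 and 34.0 in the AVC, against 36.6, 47.8 and 69.7 in the LV. Those values overlapped, with a log2 difference of -0.17 (adjusted p = 1 by limma). The interaction for Pdgfb was 1.58 (95% interval 0.25 to 2.90), with an unadjusted p of 0.0250 and an adjusted p of 0.937, so a difference between the ages did not pass. Age differences of Pdgfb were 0.86 in the AVC (adjusted p = 0.451) and -0.71 in the LV (adjusted p = 0.407).

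Pdgfc, the C chain, is secreted in a latent form that tissue plasminogen activator cleaves. Its intensity was 82.0, 81.0 and 116 in AVC E10, against 61.6, 23.6 and 14.7 in LV E10. The groups did not overlap, replicate 1 of LV E10 was far above the other 2 arrays of its group, and replicate 3 of LV E10 was not above background. The log2 difference was 1.72 ± 0.54 (SE), with an adjusted p of 0.170 by limma. At E9 the AVC values of 115, 52.9 and 94.6 overlapped the LV values of 74.0, 33.9 and 52.5 (log2 difference 0.71, adjusted p = 0.721 by limma). Age differences of Pdgfc were 0.14 in the AVC (adjusted p = 1) and -0.87 in the LV (adjusted p = 0.449), and the tissue difference averaged over both ages was 1.22 (adjusted p = 0.123).

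The ligand results at E10 changed without the 3 arrays that resembled another group. Without those 3 arrays, which left 2 arrays in each of AVC E10, AVC E9 and LV E10, the log2 difference of AVC against LV at E10 was 2.04 for Pdgfb (adjusted p = 0.0398 by limma) and 2.38 for Pdgfc (adjusted p = 0.0376). Together with Pdgfra, 3 of 5 members then passed, where 6.07% of all genes were called higher. Leaving out replicate 1 of LV E10 alone was enough for Pdgfc, both at E10 (2.30, adjusted p = 0.0345) and averaged over both ages (1.50, adjusted p = 0.0259). With arrays weighted by their agreement with their group, Pdgfra, Pdgfrb, Pdgfb and Pdgfc all passed at E10, with adjusted p of 0.00172, 0.0370, 0.0186 and 0.00829, where 9.40% of all genes were called higher. Leaving out or down-weighting arrays that are unlike their group can by itself narrow the spread within groups and raise the number of calls. Over all genes the calls at E10 rose from 438 to 1530 without the 3 arrays and to 2143 with array weights. The added ligand calls therefore cannot be told apart from an effect of how the arrays were chosen. Replicate 1 of LV E10 had the lowest weight in the weighted fit, 0.214. This array also stood apart in markers of other tissues. Its summed intensity of 8 endoderm epithelium markers was 4120.4, against 1276 and 1005.5 on the other LV E10 arrays, and that of 5 erythroid markers was 135770, against 102450 and 86072. Over the groups the endoderm sums ran from 1402 to 2557 in AVC E10, 3327 to 5028 in AVC E9, 1005.5 to 4120.4 in LV E10 and 1547 to 3462 in LV E9, with Epcam, Foxa1 and Foxa2 not above background on any array. Krt8 and Krt18 held most of the AVC E9 sums, with means of 2806 and 1012. In LV E10 the highest values were 1826 for Ttr and 1188 for Krt8. The erythroid sums ran from 84479 to 106730 in AVC E10, 83672 to 95885 in AVC E9, 86072 to 135770 in LV E10 and 102360 to 118190 in LV E9. No marker of either list was called in any comparison by limma. At an unadjusted p under 0.05 there were 3 endoderm markers for age in the AVC and 4 averaged over both tissues, and 1 erythroid marker for tissue at E9 and 1 averaged over both ages. The part of these cells in the ligand values was not tested.

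No member passed the test by limma for E10 against E9 in the AVC, where 0.551% of genes were called, for E10 against E9 in the LV (2.37%) or for the interaction (0.0315%). At an unadjusted p under 0.05 there were 2 members in the AVC (Pdgfra and Pdgfrb), 0 in the LV and 1 for the interaction (Pdgfb), where 12.5%, 19.6% and 4.71% of all genes were.

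Of the other probes of the members, the second of Pdgfb, the 2 others of Pdgfc and the second of Pdgfra were at or under background on all 12 arrays, so they gave no second reading. For the family genes outside the group of 5, the ligand gene Pdgfd was below 0 on every array, at most -0.85 for its brighter probe. Pdgfrl, a receptor-like gene without a kinase domain, was at 45.3, 86.4 and 85.3 in AVC E10, 10.6, 17.1 and 18.9 in AVC E9, 12.6, 33.1 and 38.5 in LV E10, and 9.68, 1.36 and -5.36 in LV E9. It was above background on all AVC E10 arrays, on 2 of LV E10 and on none at E9. In the AVC it was at least 2.97-fold higher at E10 than at E9, taken against the lowest signal above background, and its age difference averaged over both tissues passed the test (adjusted p = 0.0267 by limma, a fitted value that rests partly on values under background). That call ended without any of 8 single arrays, with adjusted p between 0.0607 and 0.0717.

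Markers of cushion mesenchyme moved with Pdgfra between the tissues. The paper describes the E9 canal as sampled before its cells turn into mesenchyme, so at E9 the list need not mark mesenchymal cells. Of 8 measured, 3 were called higher in the AVC at E10 (Twist1, Snai1 and Has2) and 5 averaged over both ages, and none lower. Their summed intensity ran from 5493 to 6445 in AVC E10, 4446 to 5752 in AVC E9, 1023 to 2034 in LV E10 and 1391 to 1764 in LV E9. Postn, a marker of later cushion cells, was above background on 1 array of AVC E10 and on 1 of LV E10. Prrx1 was above background on none of the LV E9 arrays. For E10 against E9 averaged over both tissues, 0 of the 8 cushion markers were called higher and 1 lower. At an unadjusted p under 0.05 by limma there were 4, where 23.5% of all genes were, and the median log2 difference was 0.57. Mean Twist1 was 1560 in AVC E10 and 623 in AVC E9, and mean Has2 was 473 and 979. The part of cushion cells in the Pdgfra difference was not tested.

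Epicardial markers moved with age. Of 7 measured, 4 were called higher at E10 averaged over both tissues (Tcf21, Upk3b, Upk1b and Aldh1a2) and 0 were called between the tissues by limma, with 0 at E10 and 2 at E9 at an unadjusted p under 0.05. Their sum was 5203 to 5606 in AVC E10, 776 to 1156 in AVC E9, 3078 to 6940 in LV E10 and 553 to 1208 in LV E9, and Msln was not above background on any array. The lowest sum of LV E10 was that of replicate 1. Endothelial markers also moved with age, with 4 of 9 called higher at E10 averaged over both tissues (Pecam1, Tek, Tie1 and Emcn), and sums of 4905 to 6540 in AVC E10, 2721 to 3941 in AVC E9, 5185 to 6753 in LV E10 and 3387 to 3848 in LV E9. Kdr was not above background on any array by its brightest probe. Averaged over both ages, Tek and Nfatc1 were called higher and Emcn lower in the AVC. Neural crest sums were 1099 to 1349 in AVC E10, 433 to 643 in AVC E9, 880 to 1060 in LV E10 and 530 to 628 in LV E9. Of the 5 markers 1, Ets1, was called higher at E10 averaged over both tissues, and Foxd3 was not above background on any array. Ets1 held most of these sums, with means of 1178.5, 510, 934 and 563 in those groups. The paper calls it an endothelial gene, so the sums need not follow neural crest. Of 6 second heart field and pharyngeal markers, Foxc1 and Foxc2 were called higher and Fgf8 lower at E10 averaged over both tissues. Sums of the 6 were 1019.6 to 1384 in AVC E10, 835 to 915 in AVC E9, 689 to 868 in LV E10 and 682 to 753 in LV E9. Between the tissues, averaged over both ages, 1 of the 6 was called higher in the AVC and 0 lower. Their median log2 difference for AVC against LV was 1.24 at E10, -0.05 at E9 and 0.69 averaged. The part of any of these cells, or of cushion cells, in the tissue and age differences of Pdgfra was not tested.

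**Figure D3:**
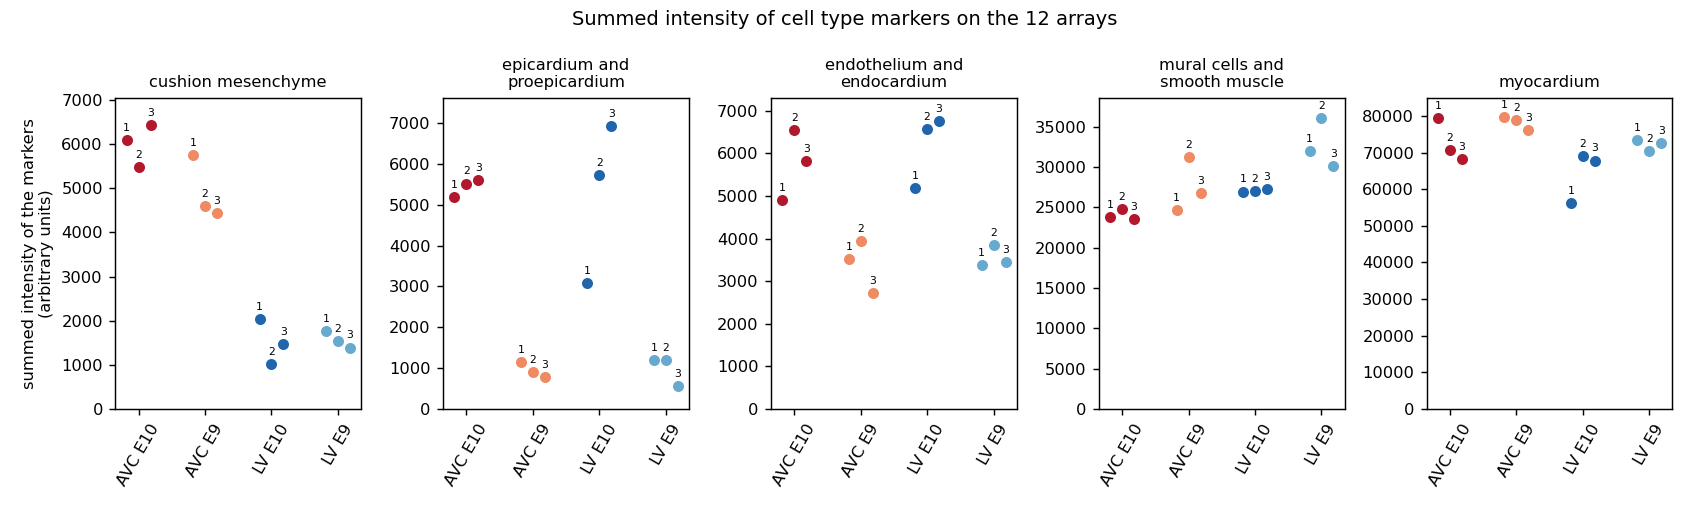
Summed intensity (arbitrary units) of measured markers of cushion mesenchyme (8), epicardium (7), endothelium (9), mural cells (8) and myocardium (7) on each array of AVC E10, AVC E9, LV E10 and LV E9, with arrays numbered by replicate. Cushion sums are at least 4446 in the AVC and at most 2034 in the LV, and epicardial sums are at least 3078 at E10 and at most 1208 at E9. Acta2 holds most of the mural sums.

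For Pdgfrb, the mural markers were set beside the receptor. Of 8 measured, only Notch3 was called higher in the AVC, at E10, at E9 and averaged over both ages, and 0 were called lower. At an unadjusted p under 0.05 by limma there were 3 at E10 and 5 at E9, where 13.9% and 11.5% of all genes were. Mean Abcc9 was lower in the AVC, at 81.4 against 189 at E10 and 93.2 against 249 at E9. Mean Tagln was 176 against 109 at E10 and 165 against 320 at E9. With age, Tagln was called lower at E10 averaged over both tissues. The pericyte gene Rgs5 was above background on 2 arrays of AVC E9 and on no other array. The sum of the list, of which Acta2 held most, was 23596 to 24761 in AVC E10, 24718 to 31239 in AVC E9, 26953 to 27279 in LV E10 and 30081 to 36098 in LV E9. Mean Acta2 was 23401 in AVC E10 and 26489 in LV E10, beside 27494 and 29123 for the myocardial gene Actc1. The sum therefore need not follow mural cells. The median log2 difference of the 8 markers for AVC against LV was 0.34 at E10 and 0.07 at E9. For Pdgfb, the megakaryocyte and platelet sums were 1642 to 4714 in AVC E10, 651 to 1609 in AVC E9, 3055 to 4828 in LV E10 and 2068 to 3700 in LV E9, with 0 of 5 markers called between the tissues by limma and, at an unadjusted p under 0.05, 0 at E10 and 3 at E9. The part of these cell types in the Pdgfb and Pdgfrb values was not tested.

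The members did not all vary together over the 12 arrays. Pearson's r of log2 intensity was 0.87 between Pdgfra and Pdgfrb, 0.65 between Pdgfra and Pdgfc, 0.02 between Pdgfra and Pdgfa and -0.56 between Pdgfa and Pdgfb. These are descriptions over 12 arrays that share 4 groups. Among the genes above background on all arrays, those most like Pdgfra were Mmp14 (r = 0.98), Clip2 (0.97), Sox5 (0.97), Flywch2 (0.97) and Rhou (0.96). Those most like Pdgfrb were Map3k12 (0.96), Mmp14 (0.94), Armcx3 (0.94), Ap3m2 (0.93) and Pabpc4l (0.93), so Mmp14, a membrane-bound metalloprotease, stood in both. For Pdgfc they were Zmym5, Pias1, Tab2, Stxbp4 and Dst (0.93 to 0.96). For Pdgfb they were Trpc6, Zfp101, Tob2, E430018J23Rik and Cldn5 (0.81 to 0.88), and for Pdgfa Tmem38a, Hdac5, Rhpn2, Polr1c and Hadh (0.83 to 0.86).

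The pathway around the receptors was followed through 72 listed genes, of which 65 were measured and 53 were above background on at least 1 array. For AVC against LV 2 were called higher and 0 lower at E10, 2 higher and 1 lower at E9, and 5 higher and 1 lower averaged over both ages. Of all genes 2.06%, 0.855% and 4.79% were called higher in these comparisons and 0.241%, 0.168% and 0.682% lower. For E10 against E9 0 were called in the AVC, 2 higher and 1 lower in the LV, and 5 higher and 1 lower averaged over both tissues, and none passed for the interaction. At an unadjusted p under 0.05 by limma the AVC age comparison held 12 of the 65, where 12.5% of all genes were, and the interaction 6, where 4.71% were. The median log2 difference of the list for AVC against LV was 0.22 at E10 and 0 at E9, beside 0.07 and 0 over all genes tested. Without the 3 arrays 10 were called higher in the AVC at E10 and 12 averaged over both ages, where 6.07% and 9.27% of all genes were.

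Of 7 measured genes of ligand processing and retention, Furin had the lowest adjusted p between the tissues. Furin encodes a proprotein convertase that cleaves the A and B chain precursors. Its intensity was 3349, 2751 and 2928 in AVC E10, against 1135, 1083 and 1099.6 in LV E10. The groups were far apart. The log2 difference was 1.44 ± 0.10 (SE, adjusted p = 9.66e-04 by limma) at E10 and 0.83 ± 0.10 (SE, adjusted p = 0.0144) at E9, where the AVC was at 2805, 2183 and 2590 and the LV at 1418, 1309.5 and 1516. Both calls were kept with each array left out. That at E9 ended with only the 2 groups fitted (adjusted p = 0.101), and the mean over all Furin probes ended both, with log2 differences of 1.22 (adjusted p = 0.396) at E10 and 0.42 (adjusted p = 0.917) at E9. Pcsk6, another convertase, went the other way at E9, with 87.2, 50.2 and 53.7 in AVC E9, against 360, 194 and 233 in LV E9. Its log2 difference there was -2.04 (adjusted p = 0.0330), a call that ended without any of 8 single arrays (adjusted p 0.0508 to 0.0915) and without the 3 arrays together (adjusted p = 0.0701). With the mean over all Pcsk6 probes it was -0.28 (adjusted p = 1).

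Plat, the tissue plasminogen activator that cleaves latent PDGF-CC, differed with age. It was at 871, 821 and 944 in AVC E10 and 318, 229 and 167 in AVC E9, and at 466, 656 and 692.5 in LV E10 and 188, 169.8 and 85.6 in LV E9. In both tissues the E10 values lay above the E9 values, as was so for 10.2% of all genes in the AVC and 8.05% in the LV. The age difference was 2.01 ± 0.24 (SE, adjusted p = 0.00536 by limma) averaged over both tissues and 2.09 (adjusted p = 0.0267) in the LV. Sparc, a matrix protein that binds PDGF dimers, was higher at E10 by 0.86 averaged over both tissues (adjusted p = 0.0135 by limma). The averaged calls of Plat and Sparc were kept with each array left out, and that of Plat in the LV ended without replicate 3 of AVC E10, replicates 2 or 3 of LV E10, or replicates 2 or 3 of LV E9, with adjusted p between 0.0520 and 0.105. The mean over all Plat probes ended both of its calls, at 0.43 averaged over both tissues (adjusted p = 0.283) and 0.24 in the LV (adjusted p = 0.771).

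Among 28 measured docking proteins and effectors, Rasa1, the Ras GTPase-activating protein that docks on the activated beta receptor, was at 1358, 1146 and 1202 in AVC E10 and 1341, 1204 and 1128 in AVC E9, against 786, 709 and 758 in LV E10 and 850, 720 and 796 in LV E9. All 6 AVC values lay above all 6 LV values, as was so for 2.36% of all genes. Its log2 difference was 0.72 at E10 (adjusted p = 0.0106 by limma), 0.63 at E9 (adjusted p = 0.0237) and 0.68 ± 0.06 (SE) averaged over both ages (adjusted p = 0.00165). The call of Rasa1 at E9 ended without replicates 1 or 2 of AVC E9, replicates 2 or 3 of LV E9 (adjusted p 0.0591 to 0.0780) or the 3 arrays together (adjusted p = 0.0510). Scaling to one 75th percentile ended its calls at E10 (0.46, adjusted p = 0.0791) and at E9 (0.49, adjusted p = 0.0691), as did fitting only the 2 groups (adjusted p = 0.0793 and 0.112), while the averaged call was kept under both scalings. Src, a kinase that binds the receptors, was higher in the AVC by 0.87 averaged over both ages (adjusted p = 0.0260), and the adaptor gene Crk was lower at E10 in the LV (-0.34, adjusted p = 0.0380). Of 10 measured responders and feedback genes only Dusp6, a phosphatase of the ERK kinases, passed, at 0.66 for AVC against LV averaged over both ages (adjusted p = 0.0479). The calls of Src, Crk and Dusp6 ended without any of 7, 8 and 9 single arrays, with adjusted p of up to 0.0707, 0.144 and 0.120. Under 75th percentile scaling all 3 calls ended, with adjusted p of 0.150 for Src, 0.113 for Crk and 0.263 for Dusp6, and under quantile normalization those of Src (0.167) and Dusp6 (0.0606) did.

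None of 7 measured coreceptors, phosphatases and ubiquitin ligases passed in any comparison by limma, and at an unadjusted p under 0.05 there were at most 2 in any of the 7. Of 11 related receptor kinases and VEGF ligands, the lymphatic growth factor gene Vegfc passed for both tissue and age. It was at 390, 594 and 570 in AVC E10 and 278, 228 and 256 in AVC E9, and at 230, 383 and 426 in LV E10 and 129, 137 and 114 in LV E9. In both tissues its E10 values lay above its E9 values, a pattern of 10.2% of all genes in the AVC and 8.05% in the LV. The log2 difference was 1.21 ± 0.17 (SE, adjusted p = 0.00849 by limma) for E10 against E9 averaged over both tissues and 0.80 (adjusted p = 0.0329) for AVC against LV averaged over both ages, of which the second ended without any of 8 single arrays (adjusted p 0.0556 to 0.0873) and under quantile normalization (0.64, adjusted p = 0.123) or 75th percentile scaling (0.60, adjusted p = 0.146). Vegfd was above background on only 3 arrays, replicates 2 and 3 of AVC E10 (103 and 84.6) and replicate 2 of LV E10 (23.8), so its call for age (adjusted p = 0.0289) rests on values under background and ended without any of 8 single arrays.

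**Figure D4:**
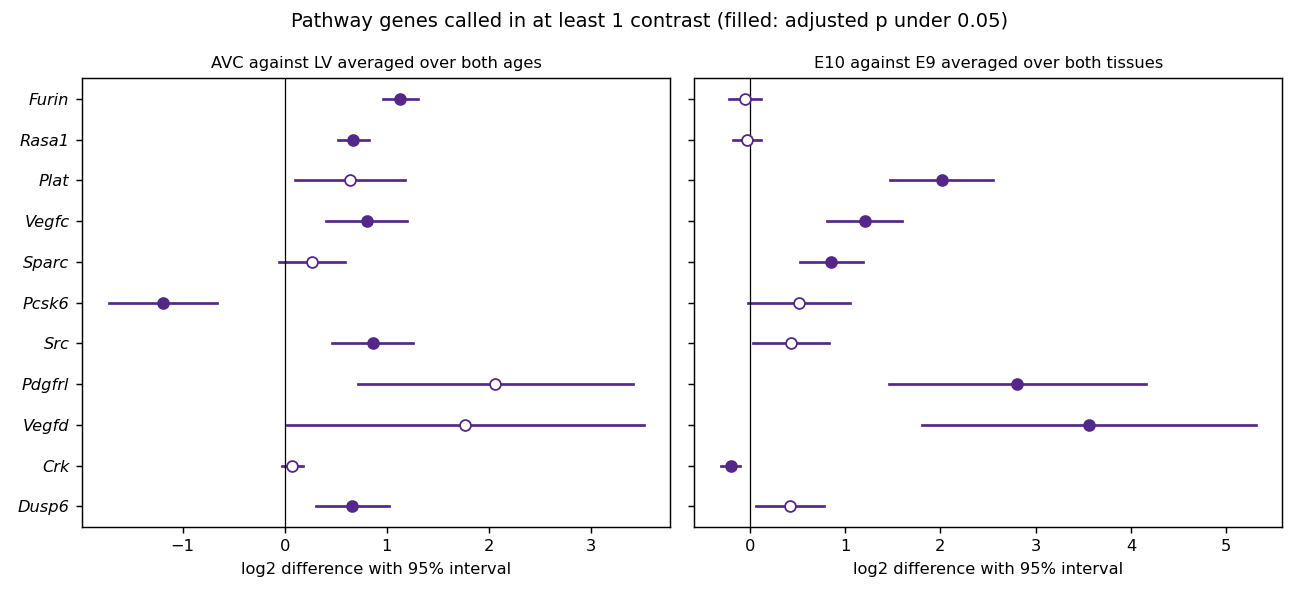
Log2 differences with 95% intervals from limma of the 11 pathway genes that passed the test in at least 1 comparison, for AVC minus LV averaged over both ages (left) and E10 minus E9 averaged over both tissues (right); filled points have an adjusted p under 0.05. Furin (1.14), Rasa1 (0.68), Src (0.87), Vegfc (0.80) and Dusp6 (0.66) are filled above 0 and Pcsk6 (-1.19) below 0 on the left, and Plat (2.01) leads the well-measured genes on the right.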

How the data were processed

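The values deposited by the authors were Illumina Mouse WG-6 v2 bead array intensities on a linear scale, background subtracted and scaled to one mean per array (386), since 34.7% of them were below 0 and the means were equal. The sources used here name no program for this step. GeneSpring GX 11.0 is the software the methods give for the study's comparisons. Probes with 1 gene symbol in the platform table (34885 of 45281) were kept, and each of 19057 genes was read from its probe with the highest mean. Values under 1 were set to 1 (36.8%) before log2. The 4 group means were fitted together with limma 3.58.1 in R 4.3.3 (lmFit, eBayes, two-sided, 8 residual degrees of freedom), with 7 contrasts and Benjamini-Hochberg adjustment over all genes within each. Calls were made at adjusted p under 0.05. The fit was tested on simulated data. The number of arrays limits the precision.

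The 5 members were always named. Pathway genes were named when called in at least 1 contrast, and for each member the 5 genes with the highest Pearson r over the arrays. Members, lists, contrasts and the 3 arrays left out together were chosen with earlier results of these data known. Some listed genes are not analysed here. No genome build is named for the arrays, so gene coordinates are given only for the RefSeq start regions. Alternatives covered the floor, scaling, filter, variance model, array weights, samples in the fit, replicate block, probe summary, arrays left out and the methods' threshold of 4-fold at 0.01, applied here to the unadjusted p since the methods do not say which p was meant. The replicate numbers of the labels were not treated as pairs in the reported fit, and the check made did not settle whether they pair the samples.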

Additional observations from a re-analysis of the deposited data

How the results depend on the processing

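Of the 5 members, the number called for AVC against LV at E10 (1) was 0 when only the 2 groups were fitted and 0 with the mean over all probes of a gene, 2 with log2 of the value plus 50 (3.78% of all genes called higher), 3 without the 3 arrays together (6.07%) and 4 with array weights (9.40%). With single arrays left out it was 1 to 2. At E9 the number (1) was 0 with a floor of 30, with only the 2 groups, with the replicate block, with the mean over all probes, without the 3 arrays and at the methods' threshold, and 0 to 1 with single arrays left out. Averaged over both ages (1) it was 0 with the mean over all probes and at the methods' threshold, 2 among genes above background in a group (11.6% of those called higher) and without the 3 arrays (9.27%), 3 with log2 of the value plus 50 (6.64%) and with array weights (11.5%), and 1 to 2 with single arrays left out. For E10 against E9 in the AVC (0) it was 2 with log2 of the value plus 50 (2.37%), 1 with array weights (5.99%) and 0 to 1 with single arrays left out. Averaged over both tissues (1) it was 0 with the mean over all probes and at the methods' threshold, 2 with log2 of the value plus 50 (7.22%), quantile normalization, 75th percentile scaling, the filter on background (10.8%) and array weights (12.2%), and 0 to 2 with single arrays left out. In the LV, and for the interaction, no alternative called a member. The mean over all probes averages Pdgfra, Pdgfb and Pdgfc with probes that were never above background. The other causes were not tested.

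The replicate number as a block kept the Pdgfra call at E10 (adjusted p = 0.0180) and ended that at E9 (adjusted p = 0.0733). It changed no other call of a member. For the calls of named pathway genes, 187 values under the alternatives other than single arrays kept the call, 59 ended it and 1 turned the sign. Deviations of same-numbered arrays from their group means correlated at -0.37 to 0.52 (median 0.10, 9 of 18 pairs above 0.1). Those of differently numbered arrays correlated at -0.54 to 0.51 (median -0.08, 9 of 36 above 0.1). Between AVC E9 and LV E9 the same-numbered pairs were at 0.23, 0.09 and 0.28, and the others at -0.21 to 0.001. The numbers were not treated as pairs in the reported fit, but these values do not exclude a pairing. Over all genes the counts called under the alternatives ran from 72 to 2143 for AVC against LV at E10 (438 as reported), 83 to 636 at E9 (195), 235 to 2619 averaged over both ages (1042), 21 to 2050 for E10 against E9 in the AVC (105), 75 to 3997 in the LV (452), 320 to 5261 averaged over both tissues (1544) and 0 to 163 for the interaction (6). The higher and lower calls, 912 and 130 for AVC against LV averaged over both ages, became 483 and 259 with quantile normalization and 425 and 523 with 75th percentile scaling. Under that percentile scaling they became 50 and 53 for E10 against E9 in the AVC (82 and 23), 272 and 441 in the LV (261 and 191) and 748 and 1095 averaged over both tissues (880 and 664).

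The sign turned in these cases. With the mean over all probes, Pdgfra for E10 against E9 was -0.050 in the AVC, -0.43 in the LV and -0.24 averaged, Pdgfc in the AVC was -0.54, Pdgfb for AVC against LV averaged over both ages was -0.00089 and Pcsk6 for the same was 0.079. For AVC against LV averaged over both ages, Pdgfa was -0.0099 with quantile normalization, -0.15 with 75th percentile scaling and -0.012 without the 3 arrays. For E10 against E9 averaged over both tissues, Pdgfa was 0.040 with quantile normalization and 0.0095 with array weights. Pdgfc for E10 against E9 in the AVC was -0.11 without the 3 arrays. With single arrays left out, Pdgfa ran from -0.35 to 0.079 for AVC against LV at E10, -0.067 to 0.15 averaged over both ages, -0.036 to 0.40 for E10 against E9 in the LV and -0.11 to 0.11 averaged over both tissues, Pdgfb from -0.38 to 0.081 for AVC against LV at E9 and -0.065 to 0.25 for E10 against E9 averaged over both tissues, and Pdgfc from -0.19 to 0.37 for E10 against E9 in the AVC. None of these was called in either form, apart from the averaged Pdgfra age difference and the averaged Pcsk6 difference in the reported fit. Pdgfrb, Pdgfb and Pdgfc were near the background limit in the LV, where a log2 difference depends on subtraction.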
